A study of Rattus norvegicus with 8 samples.

Results

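Expression of 36 genes of lipid and cholesterol metabolism was compared between secretory-stage and maturation-stage enamel organs of the rat incisor. The genes were taken by name, and a probe belonged to the set when its gene symbol in the array's annotation, without regard to case or to a trailing "_predicted" or "_mapped", was one of the names. This gave 33 of the 22523 probes on the array, which read 32 of the 36 genes. No probe was found for Lss, Insig1, Fasn or Fabp5, under these or current symbols, so lanosterol synthase, an inhibitor of sterol regulatory protein processing, fatty acid synthase and one fatty acid carrier were not measured. Of the 33 probes, 31 were detected (detection p below 0.05) on at least 4 of the 8 arrays, and 1 was detected on none.

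Total RNA came from the enamel organs of 4 male Wistar (Wistar Hannover) rats aged 4 weeks, and each rat gave 1 secretory-stage and 1 maturation-stage sample (n = 4 a stage). Neither stage carried a treatment or an altered gene. Each sample was read on its own array of the RatRef-12 v1 BeadChip, an Illumina design in which many beads carry the same probe, and samples of a rat share its number here (rat 1 gave secretory replicate 1 and maturation replicate 1). The cell layer over the enamel was collected whole from freeze-dried mandibles, so ameloblasts were measured together with the other cells of that layer, and in such bulk samples fewer cells of a type and less RNA per cell cannot be told apart. The title, the description and the tissue entry of maturation replicates 2, 3 and 4 name the maturation stage, whereas a source entry names the secretory stage, and the stage was taken from the title. Stage markers separated the samples as their titles do. The gene of the maturation-stage protease, Klk4, read 5.14 to 6.47 in the secretory stage and 13.12 to 13.45 in the maturation stage on the probe ILMN_2040219, and Enam, which encodes a secreted enamel matrix protein, read 11.94 to 12.03 and 5.17 to 9.08. All these are normalized log2 signals, the scale of every level given here. Enam was higher in maturation replicates 1 and 4 (9.08 and 8.22) than in replicates 2 and 3 (5.17 and 5.53). Summed over all probes, the bead signal of a secretory-stage array was 11881691 to 12046793 and that of a maturation-stage array 13355073 to 16122665, and 10667 to 10941 and 11164 to 11450 probes were detected. With 4 arrays a stage, precision is limited by their number.

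Cholesterol is built from acetyl-CoA through mevalonate, isoprenoid diphosphates, squalene and lanosterol, and most enzymes of this route sit in the endoplasmic reticulum. Its genes are known to be switched on together by sterol regulatory element-binding proteins when sterol in that membrane is low, with the factor NF-Y at CCAAT boxes in many of their promoters. Fatty acids are made in the cytosol from citrate-derived acetyl-CoA, taken up from lipoproteins after lipase has released them, activated to acyl-CoA by synthetases, and burned in mitochondria and peroxisomes by beta-oxidation. In amelogenesis, secretory ameloblasts lay down the enamel matrix, and maturation ameloblasts remove it, move ions and cycle their membranes.

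Of the sterol synthesis genes, 6 of 8 had a promoter in the RefSeq-based table (GRCr8 assembly), and the 250 bases before the start of 4 of them held a CCAAT box, read as CCAAT or, on the other strand, ATTGG. The windows of 3 genes held 2 such boxes each, and these 3 are shown as examples of the route. Capitals mark the boxes, and each sequence runs 5′ to 3′ on the strand of its gene. The windows are chr2:53382054-53382303 (plus strand, Hmgcs1), chr17:66547525-66547774 (minus strand, Idi1) and chr2:176804817-176805066 (minus strand, Fdps).
Hmgcs1: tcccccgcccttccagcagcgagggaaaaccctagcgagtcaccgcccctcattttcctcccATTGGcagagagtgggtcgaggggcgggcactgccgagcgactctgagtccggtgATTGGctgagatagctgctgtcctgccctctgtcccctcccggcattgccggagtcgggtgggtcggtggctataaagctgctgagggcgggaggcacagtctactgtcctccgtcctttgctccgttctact
Idi1: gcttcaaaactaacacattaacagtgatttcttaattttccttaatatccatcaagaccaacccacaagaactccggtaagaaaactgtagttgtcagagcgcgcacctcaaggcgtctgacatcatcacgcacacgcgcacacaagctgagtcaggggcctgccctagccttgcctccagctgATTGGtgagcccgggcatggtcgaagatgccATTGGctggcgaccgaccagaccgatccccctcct
Fdps: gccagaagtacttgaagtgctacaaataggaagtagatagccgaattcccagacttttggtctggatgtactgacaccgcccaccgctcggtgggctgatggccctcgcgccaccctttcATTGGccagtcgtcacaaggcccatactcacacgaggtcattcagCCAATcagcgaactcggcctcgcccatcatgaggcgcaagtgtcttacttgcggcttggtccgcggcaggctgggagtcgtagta
The first bases of the boxes lie 188 and 133 bases before the start of Hmgcs1, 66 and 35 before that of Idi1, and 130 and 85 before that of Fdps. Lss had 1 box, and Cyp51 and Dhcr7 had none in these windows. Over 33469 rat promoters of the same length, 34.0% held at least 1 box and 9.42% at least 2. A strict form of the sterol regulatory element, TCACNCCAC on either strand, was in 0.974% of those promoters and in 0 of the 29 windows of the 28 genes of the set that the table lists. Among those 29 windows 13 held a CCAAT box, including 1 of 8 for the fatty acid oxidation genes, and 6 held 2 boxes. The others of these 6 were 1 of the windows of Srebf1 and those of Cte1 and Adipoq, whose transcripts were lower in the maturation stage, so that a pair of boxes was found with either direction. These matches describe letters, and no binding was measured.

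Called probes had an adjusted p below 0.05 in limma's fit over all probes and a fold of at least 1.8, which is 0.848 on the log2 scale. By this rule 6 probes of the set were higher and 4 were lower in the maturation stage, beside 7.75% of all probes called either way, 4.6% called higher and 3.15% called lower. Among the 11233 probes detected on at least 4 arrays, 15.5% were called. At the adjusted p alone, 22 of the 33 probes were higher and 4 lower, where 12.8% of all probes were higher and 14% lower, and 24% of the probes detected on at least 4 arrays were higher. The stages did not overlap for 27 of the 33 probes, beside 27.7% of all probes. That share is over all 22523 probes, detected or not, and was not taken among the 11233 detected probes. The median log2 fold change of the 33 probes was 0.46, that of all probes was -0.01 and that of the detected probes was -0.05. Of all called probes 59.3% were higher in the maturation stage, but 77.6% were with median scaling in place of quantile normalization, which moved the median of the detected probes to 0.18. The set then had 13 probes called higher and 3 lower.

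**Figure D1:**
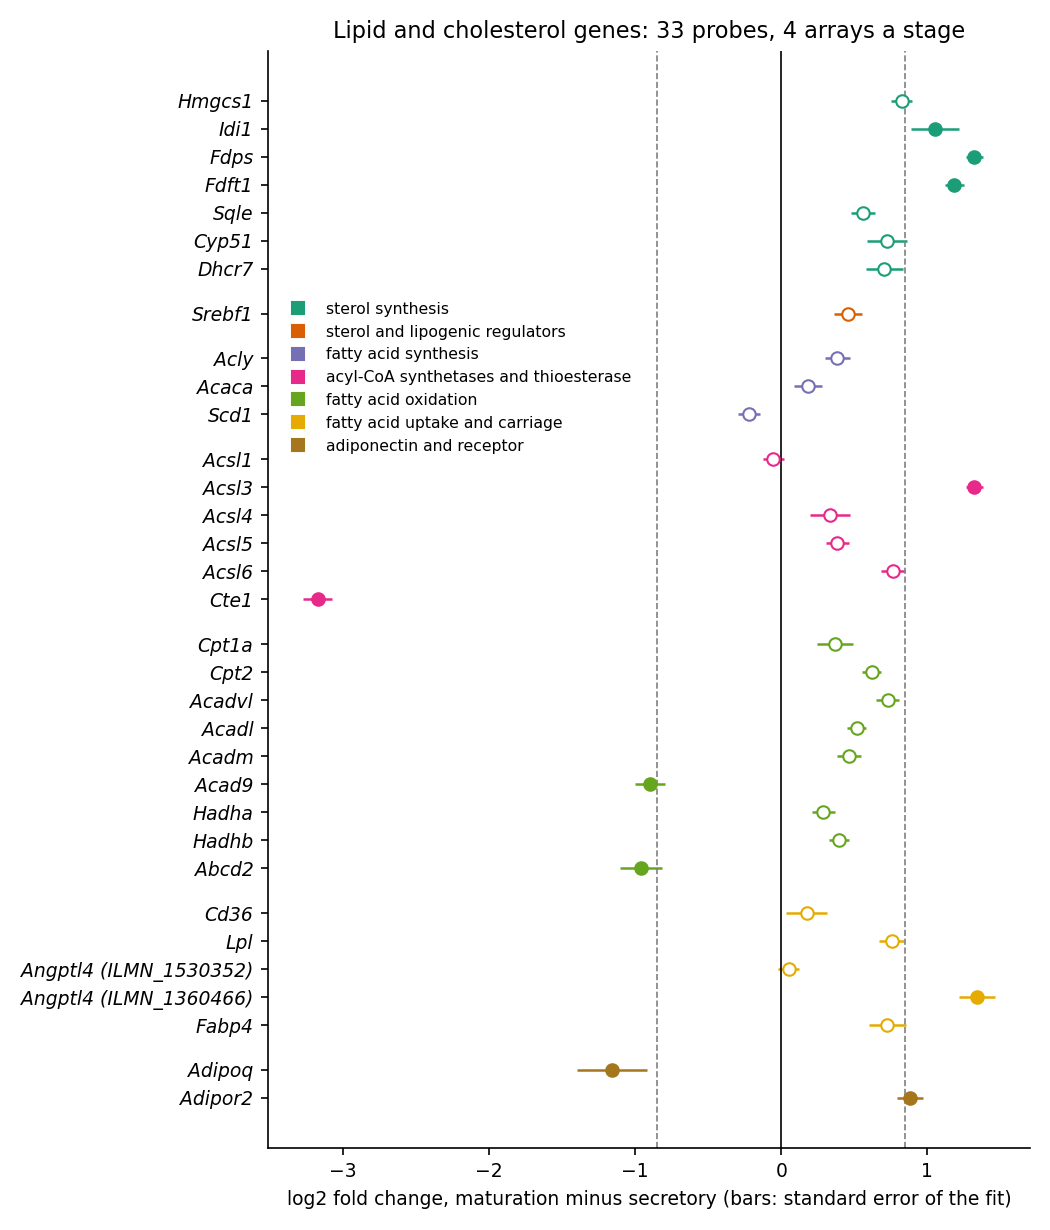
The log2 fold change, maturation minus secretory, of each of the 33 probes, grouped by role (colours), with the standard error of the fit as bars and n = 4 arrays a stage. Filled points are the 10 called probes and dashed lines mark a fold of 1.8: Cte1 lies farthest to the left, at -3.18, and all 7 sterol synthesis probes lie between 0.56 and 1.32.

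Every sterol synthesis enzyme with a probe was up-regulated in the maturation stage. All 7 passed the adjusted p, did not overlap between the stages and were higher in all 4 rats, and 3 of them, Idi1, Fdps and Fdft1, were called. The median log2 fold change of the 7 was 0.82, and the mean difference over the 7 probes was 1.02 in rat 1, 0.90 in rat 2, 0.85 in rat 3 and 0.88 in rat 4. Relative to the median of the detected probes, the median of the 7 was 0.87 higher, and it was 0.88 higher with median scaling, under which all 7 were called.

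Hmgcs1 encodes the cytosolic synthase that makes HMG-CoA, the substrate of the mevalonate step, and lies on chromosome 2 in the array's annotation. It read 11.25, 11.36, 11.50 and 11.48 in secretory replicates 1 to 4, and 12.22, 12.12, 12.28 and 12.27 in maturation replicates 1 to 4. The stages lay apart by more than the spread within either of them, and the difference of 0.82 (SE 0.07, adjusted p = 2.2e-05) fell just short of the fold needed for a call, at 1.77-fold.

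Isoprenoid diphosphates are made by isopentenyl-diphosphate isomerase (Idi1) and farnesyl diphosphate synthase (Fdps). For Idi1 the secretory-stage signals were 8.14, 7.85, 8.07 and 8.32 and the maturation-stage signals 9.61, 8.91, 8.86 and 9.20. Rat 1 had the highest maturation-stage value, which made Idi1 one of the more variable genes of the route, with a log2 fold change of 1.05 (SE 0.17, adjusted p = 0.00098). Fdps read 9.12, 9.11, 8.97 and 9.13 in the secretory stage and 10.35, 10.40, 10.43 and 10.43 in the maturation stage. The maturation-stage samples were nearly level, at 10.40 ± 0.04 (SD, n = 4) against 9.08 ± 0.07 (SD, n = 4). The log2 fold change of Fdps was 1.32 (SE 0.06, adjusted p = 2.9e-07), a 2.50-fold difference. In the deposited bead signal, before any correction, Fdps stood at 504.5 to 552.1 in the secretory stage and at 1508 to 1786 in the maturation stage.

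Squalene is made from farnesyl diphosphate by squalene synthase (Fdft1) and then oxidized by squalene epoxidase (Sqle). Fdft1 read 9.20, 9.19, 9.22 and 9.40 in the secretory stage and 10.43, 10.42, 10.42 and 10.48 in the maturation stage. Its 4 maturation-stage samples were close together, and the log2 fold change was 1.19 (adjusted p = 9.4e-07). Sqle, the next enzyme, had a smaller difference of 0.56 (SE 0.08, adjusted p = 0.00065), from 9.90, 9.77, 9.88 and 9.86 to 10.31, 10.52, 10.24 and 10.58, and the stages did not overlap.

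The post-lanosterol members were lanosterol demethylase (Cyp51) and the delta-7 sterol reductase (Dhcr7). Cyp51 read 5.48, 5.31, 5.36 and 5.41 in the secretory stage and 6.38, 5.66, 6.18 and 6.24 in the maturation stage. Maturation replicate 2 was the lowest of its stage, yet lay above every secretory-stage sample, and the log2 fold change was 0.72 (SE 0.14, adjusted p = 0.0033). Dhcr7 read 8.65, 8.53, 8.76 and 9.06, then 9.55, 9.36, 9.26 and 9.66. Its stages did not overlap, with a log2 fold change of 0.71 (SE 0.13, adjusted p = 0.0021).

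Other genes of sterol synthesis and its regulation, 18 genes read by 19 probes, gave 4 probes called higher and 1 called lower, and 12 higher and 3 lower at the adjusted p, with a median log2 fold change of 0.58. The largest differences were those of Tm7sf2, a sterol reductase, at 2.42 (SE 0.08, adjusted p = 8e-08) on the probe ILMN_1358232, and of Hsd17b7, a sterol 3-keto reductase, at 1.57 (SE 0.09, adjusted p = 1.6e-06). The other probe of Tm7sf2, ILMN_1530410, was undetected in the secretory stage, and its mean rose from 4.63 to 6.48, so that the transcript was at least 2.70-fold higher by the lowest detected signal. Looked up after its values were seen, Ggps1, which diverts farnesyl diphosphate to geranylgeranyl diphosphate, was at -0.40 (SE 0.05, adjusted p = 0.00039), and at -0.07 (adjusted p = 0.324) with median scaling.

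**Figure D2:**
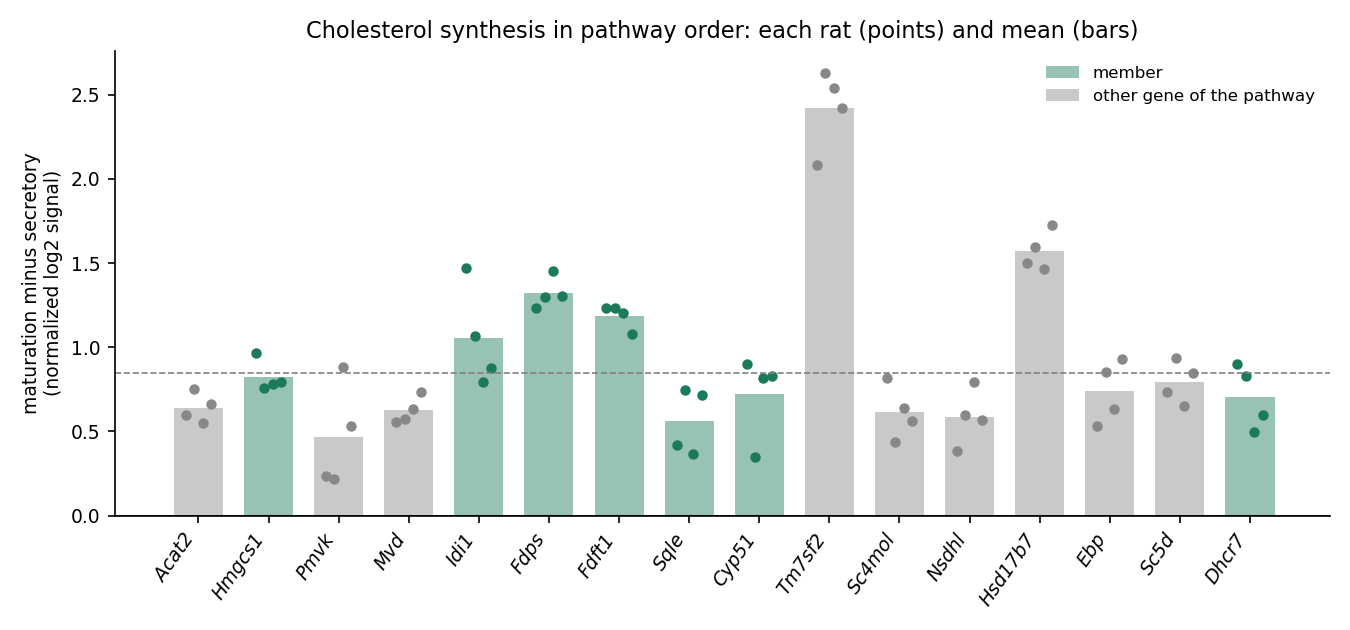
The maturation minus secretory difference in normalized log2 signal for 16 genes in the order of cholesterol synthesis, with each of the 4 rats as a point, the mean as a bar from 0 and a dashed line at a fold of 1.8. Other genes of the lists are not plotted, among them probes that were lower in the maturation stage, and the bars of the 7 genes of the set (green) and of the other genes plotted (grey) stand above 0 in every rat.

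Srebf1 encodes a sterol regulatory element-binding protein that acts mainly on lipogenic genes. It read 8.48, 8.58, 8.27 and 8.33 in the secretory stage and 8.64, 8.97, 8.93 and 8.95 in the maturation stage. Maturation replicate 1 lay just above the highest secretory-stage sample and the other maturation-stage samples lay further up, for a log2 fold change of 0.46 (SE 0.10, adjusted p = 0.0056) that did not reach the fold of a call. Among the other regulators, also looked up after their values were seen, Scap, the escort of these proteins to the Golgi, was higher by 0.55 (SE 0.07, adjusted p = 0.00034). Srebf2, the sterol-responsive family member, was at 0.17 (SE 0.15, adjusted p = 0.52) and Insig2, which holds the complex back, at 0.03 (SE 0.06, adjusted p = 0.83), and neither passed the test, although Insig2 passed it at 0.31 (adjusted p = 0.00683) with median scaling.

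Fatty acid synthesis was read by 3 probes, of which Acly was higher at limma's adjusted p and 0 were called. At an unadjusted p below 0.05, 1 was higher and 1 lower. Acly, which splits citrate into acetyl-CoA in the cytosol, read 10.11, 10.03, 9.99 and 9.81 and then 10.23, 10.52, 10.30 and 10.42. Its stages did not overlap, with a log2 fold change of 0.38 (SE 0.09, adjusted p = 0.0079). Acaca, the carboxylase that commits acetyl-CoA to fatty acid synthesis, was detected on 1 of 8 arrays, with means of 4.69 ± 0.09 and 4.88 ± 0.19 (SD, n = 4) and adjusted p = 0.22, so that little can be read from its probe.

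Scd1, named Scd in the current annotation, encodes the desaturase that makes oleate. It read 10.08, 9.98, 10.13 and 9.93 in the secretory stage and 9.70, 9.93, 9.73 and 9.90 in the maturation stage. The maturation-stage samples were lower in all 4 rats by a small margin, at -0.22 (SE 0.08, adjusted p = 0.063), and the sign turned under median scaling, where the difference was 0.10. Of 11 further genes of fatty acid synthesis, 5 were called, each of them higher, and 8 were higher and 1 lower at the adjusted p, with a median of 0.56. They were led by Slc25a1, the mitochondrial citrate carrier, at 1.57 (SE 0.08, adjusted p = 7.9e-07). The delta-6 and delta-5 desaturases of polyunsaturated fatty acids followed, Fads2 at 1.35 (SE 0.12, adjusted p = 3e-05) and Fads1 at 1.13 (SE 0.12, adjusted p = 7.7e-05).

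The acyl-CoA synthetases, which couple long-chain fatty acids to coenzyme A, did not move alike. Acsl3, an isoform of the endoplasmic reticulum and lipid droplets, was the one called. It read 9.95, 9.81, 9.95 and 9.79 in the secretory stage and 11.18, 11.17, 11.18 and 11.26 in the maturation stage. The stages were far apart beside their spread, and Acsl3 was 2.50-fold higher (log2 fold change 1.32, SE 0.06, adjusted p = 4.2e-07). Acsl5 was higher by 0.38 (SE 0.08, adjusted p = 0.005), without overlap. Acsl1 at -0.05 (SE 0.07, adjusted p = 0.71) and Acsl4, which favours arachidonate, at 0.33 (SE 0.14, adjusted p = 0.12) did not pass the test, and the sign of Acsl1 turned under median scaling, to 0.26, and under cyclic loess, to 0.02.

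Acsl6 was undetected on all 4 secretory-stage arrays, where it read 4.67, 4.53, 4.57 and 4.48. It was detected on all 4 maturation-stage arrays, at 5.21, 5.25, 5.31 and 5.54. Its mean of 5.33 against 4.56 gave an adjusted p of 8.7e-05, and against the lowest detected signal the maturation stage was at least 1.22-fold higher.

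The thioesterase Cte1, which frees fatty acids from cytosolic acyl-CoA and is named Acot1 in the current annotation, had the largest difference of the set. It read 7.96, 8.28, 7.87 and 7.98 in the secretory stage and 4.95, 4.94, 4.65 and 4.84 in the maturation stage. All secretory-stage samples were high, and the maturation-stage samples were at the edge of detection, with a detection p below 0.05 on 1 of 4 arrays. The fitted difference was 9.04-fold lower in the maturation stage (log2 fold change -3.18, SE 0.10, adjusted p = 5.5e-08). Since the maturation-stage mean of 4.85 lay under the lowest signal of a detected probe on those arrays, 4.93 to 4.98, the size of this fold rests on the background correction, and without it the log2 fold change was -1.57 and still called. The deposited signal stood at 283.1 to 350.8 in the secretory stage and at 111.3 to 130.9 in the maturation stage.

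Because this gene has close relatives beside it on chromosome 6, the other acyl-CoA thioesterases on the array were looked up after the values were seen. Mte1 (now Acot2), the mitochondrial relative, was detected on 1 of 8 arrays and stood at 0.29 (SE 0.11, adjusted p = 0.076). The probe of Acot3 gave 0.26 (SE 0.19, adjusted p = 0.42) and that of Acot5 was undetected on every array. Elsewhere in the genome, Acot7 was called higher at 1.36 (SE 0.09, adjusted p = 3.8e-06), and Acot8 at 0.80 (SE 0.14, adjusted p = 0.0019) and Acot13 at 0.67 (SE 0.11, adjusted p = 0.0011) were higher. The probe of Acot9 was lower, at -0.48 (SE 0.12, adjusted p = 0.017), and at -0.16 (adjusted p = 0.372) with median scaling. How far the Cte1 probe also reads transcripts of its relatives was not tested.

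**Figure D3:**
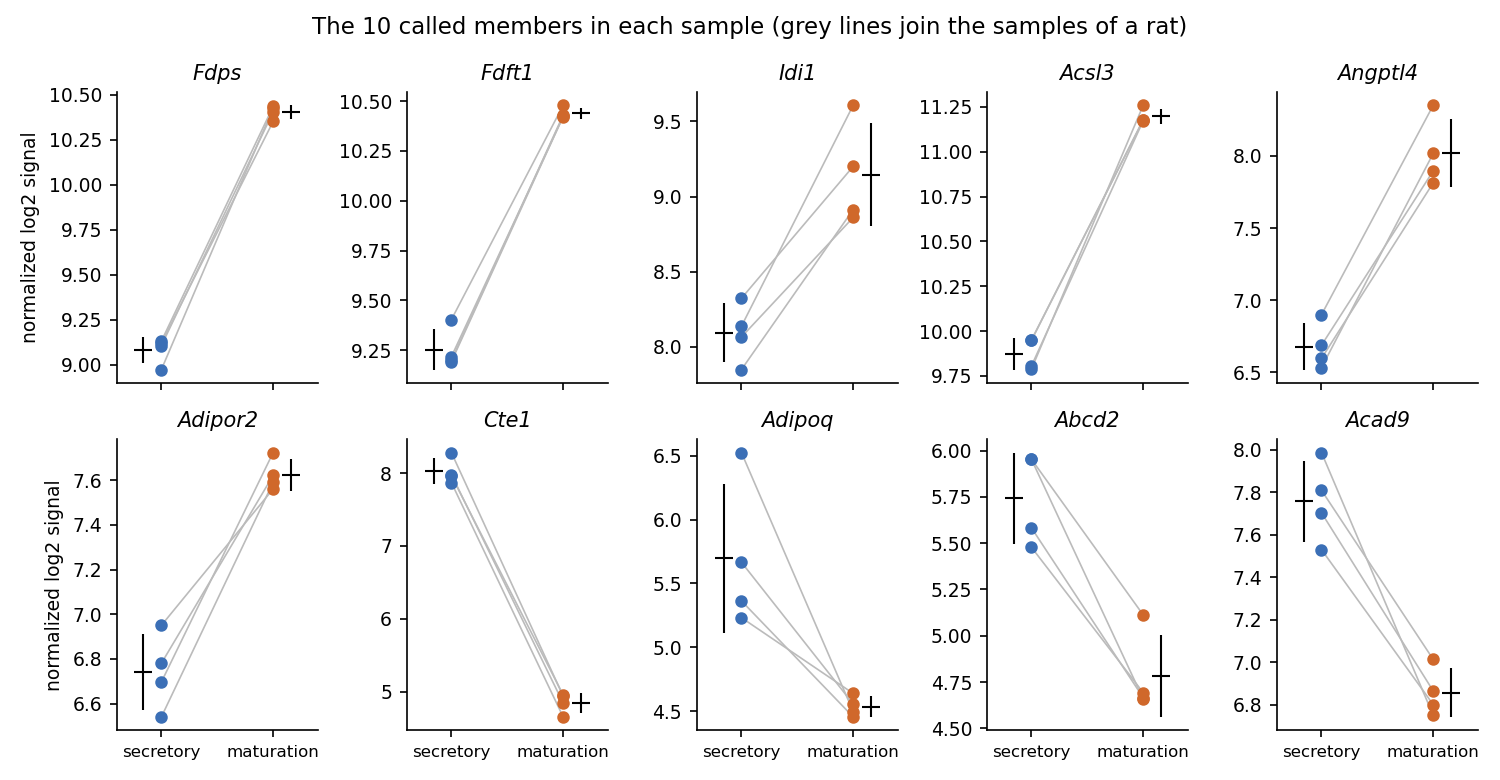
Normalized log2 signal of the 10 called probes in each sample of the secretory stage (blue) and the maturation stage (orange), with grey lines joining the samples of a rat and black marks for the mean and SD (n = 4). The vertical axis differs between panels: the upper row and Adipor2 rise in all 4 rats, and Cte1, Adipoq, Abcd2 and Acad9 fall in all 4 rats.

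Most of the fatty acid oxidation enzymes in the set showed modest rises, and 2 genes at the margin of the route fell. Of 9 probes, 6 were higher and 2 lower at the adjusted p and 1 did not pass. None of the higher probes reached the fold of a call, and both lower probes did. Without background correction, with normexp alone or with an offset of 50, none of the 9 was called. Median scaling gave 2 called higher and 1 lower. No normalization between arrays, chosen after seeing the data, gave 5 higher and 0 lower, so the direction of the calls depended on the normalization.

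Long-chain fatty acids enter the mitochondrion through carnitine palmitoyltransferases. Cpt1a, the regulated outer-membrane step, read 9.76, 10.07, 10.02 and 9.53 in the secretory stage and 10.17, 10.30, 10.33 and 10.06 in the maturation stage. The stages overlapped, as maturation replicate 4 lay just below secretory replicate 2, though each rat was higher in the maturation stage, and the difference of 0.37 (SE 0.12, adjusted p = 0.052) did not pass. With the rat as a block it passed (adjusted p = 0.00893), and 23 probes of the set were then higher at the adjusted p. Cpt2, the inner-membrane step, read 9.90, 9.85, 9.91 and 10.04 and then 10.53, 10.45, 10.61 and 10.59. It was higher in every rat by a similar amount, with a log2 fold change of 0.62 (SE 0.07, adjusted p = 7.6e-05).

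The acyl-CoA dehydrogenases that open each cycle for very long, long and medium chains rose together. Acadvl was higher by 0.73 (SE 0.08, adjusted p = 7.9e-05), from 10.21, 10.07, 10.03 and 10.03 to 10.96, 10.84, 10.66 and 10.78. Acadl was higher by 0.52 (SE 0.06, adjusted p = 0.00021) and Acadm by 0.46 (SE 0.08, adjusted p = 0.0023), both without overlap. The subunits of the trifunctional protein, which carries out the following steps, rose less: Hadha by 0.29 (SE 0.08, adjusted p = 0.019) and Hadhb by 0.39 (SE 0.07, adjusted p = 0.0019).

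Acad9, a dehydrogenase relative that also serves in the assembly of respiratory complex I, went the other way. It read 7.70, 7.99, 7.81 and 7.53 in the secretory stage and 6.86, 6.75, 7.01 and 6.80 in the maturation stage. The stages did not overlap, and it was lower by a log2 fold change of -0.90 (SE 0.10, adjusted p = 0.00012). At 1.87-fold it was close to the threshold, and it was lower but not called with median scaling (-0.58), with cyclic loess (-0.83) or without secretory replicate 2 (-0.83). Abcd2, a peroxisomal carrier of very long-chain acyl-CoA, read 5.48, 5.95, 5.58 and 5.95 in the secretory stage and 4.69, 4.66, 4.67 and 5.11 in the maturation stage. It was detected on all secretory-stage arrays and on 1 maturation-stage array, the one with the value of 5.11, and the fitted log2 fold change was -0.96 (SE 0.14, adjusted p = 0.00066). The maturation-stage mean of 4.78 was under the lowest detected signal here too, and without background correction the change was -0.33 and not called.

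Of 25 probes for 24 further genes of oxidation, 2 were called higher and 1 lower, and 10 were higher and 3 lower at the adjusted p, with a median of 0.15. The other 12 did not pass, so the rises in the set did not extend to every step of oxidation. Hadhsc (now Hadh), the short-chain hydroxyacyl-CoA dehydrogenase, was higher by 1.52 (SE 0.10, adjusted p = 3.5e-06), and Acaa1 (now Acaa1a), a peroxisomal thiolase, by 0.85 (SE 0.14, adjusted p = 0.0013).

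Uptake and carriage of fatty acids gave 3 of 5 probes higher at the adjusted p, of which 1 was called. Lpl, the lipase that releases fatty acids from circulating lipoproteins, read 9.87, 10.16, 10.13 and 9.94 in the secretory stage and 10.74, 10.66, 10.93 and 10.78 in the maturation stage. The samples of the stages were clearly separate, with a log2 fold change of 0.76 (SE 0.09, adjusted p = 0.00014). Its inhibitor Angptl4 rose further on the probe ILMN_1360466, from 6.60, 6.90, 6.53 and 6.69 to 7.81, 8.35, 8.02 and 7.90. Both the lipase and its inhibitor were thus higher in all 4 rats, and Angptl4 was 2.53-fold higher (log2 fold change 1.34, SE 0.12, adjusted p = 3.3e-05). A second Angptl4 probe, ILMN_1530352, was undetected on every array and gave 0.05 (SE 0.07, adjusted p = 0.71), so the probes of this gene do not give the same picture.

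Cd36, a receptor for fatty acids and modified lipoproteins, read 7.06, 7.21, 7.51 and 7.24 in the secretory stage and 7.67, 7.05, 7.48 and 7.52 in the maturation stage. The stages overlapped, and the difference of 0.17 (SE 0.14, adjusted p = 0.47) did not pass. Fabp4, a carrier best known from adipocytes, macrophages and capillary endothelium, read 5.11, 4.93, 4.64 and 4.85 and then 5.82, 5.30, 5.68 and 5.64. It was detected on 1 secretory-stage and 4 maturation-stage arrays, and was higher by 0.73 (SE 0.13, adjusted p = 0.0019).

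Markers of other cell types that can express Lpl, Cd36 and Fabp4 gave differing counts. Of 10 macrophage probes, 5 were called higher, Cd68, Cd14, Lcp1, Ptprc and Fcgr1, led by Cd68 at 2.19 (SE 0.13, adjusted p = 2.3e-06), and their summed linear signal was 3556 to 4319 in the secretory stage and 9264 to 11930 in the maturation stage. A second probe of Lcp1 was undetected. Of 9 endothelial probes, Vwf was called higher at 0.88 (SE 0.18, adjusted p = 0.0046) and Cdh5, a defining marker, was undetected on every array, and the summed signal was 5153 to 6321 and then 6740 to 8384. Of 10 adipocyte probes, Cfd was called higher at 1.48 (SE 0.11, adjusted p = 5.8e-06) and Adipoq was called lower, while Lep, Cidea and Cebpa were undetected on every array and Plin was detected on 1 array of each stage. Fabp4, Lipe and the undetected Cidea were also higher at the adjusted p, and the other 5 adipocyte probes did not pass. The summed adipocyte signal was 736.5 to 831.3 and then 1530 to 2054, most of it from Cfd, which read 8.92 to 9.16 and then 10.31 to 10.79. Of 8 skeletal muscle probes, Actn3 was called lower at -1.57 (SE 0.10, adjusted p = 2.6e-06), Myh4 was undetected on every array, and the summed signal was 341.9 to 736.8 and then 276.8 to 1085. The part of these cells in the rise of Lpl, Angptl4 and Fabp4 was not tested.

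A further 29 probes for 27 genes of uptake, storage and export included 1 that was called, with 9 higher and 4 lower at the adjusted p and a median of 0.09. The called gene was Pnpla2, the lipase that starts triglyceride breakdown in lipid droplets. Its signals of 6.54, 6.49, 6.36 and 6.84 in the secretory stage and 7.85, 7.68, 7.86 and 7.95 in the maturation stage lay well apart, with a log2 fold change of 1.28 (SE 0.10, adjusted p = 1.5e-05).

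Adiponectin, a hormone made chiefly by adipocytes, and one of its receptors moved in opposite directions. Adipoq read 6.52, 5.36, 5.67 and 5.23 in the secretory stage and 4.50, 4.46, 4.56 and 4.64 in the maturation stage. Rat 1 had the highest secretory-stage value by a wide margin, all 4 maturation-stage arrays were without detection, and the means were 5.70 ± 0.58 and 4.54 ± 0.08 (SD, n = 4). Against the lowest detected signal the secretory stage was at least 1.68-fold higher (adjusted p = 0.0051), a bound below the fold of a call although the fitted log2 fold change was -1.16 (SE 0.24), and -0.44 without background correction. With the other adipocyte markers as given above, the part of adipocytes in this result was not tested. Adipor2, a receptor that promotes fatty acid oxidation, read 6.70, 6.78, 6.95 and 6.54 and then 7.72, 7.62, 7.56 and 7.59. The receptor was higher in all 4 rats, by 0.88 (SE 0.09, adjusted p = 5.4e-05), and without secretory replicate 4 it was at 0.82 and not called.

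**Figure D4:**
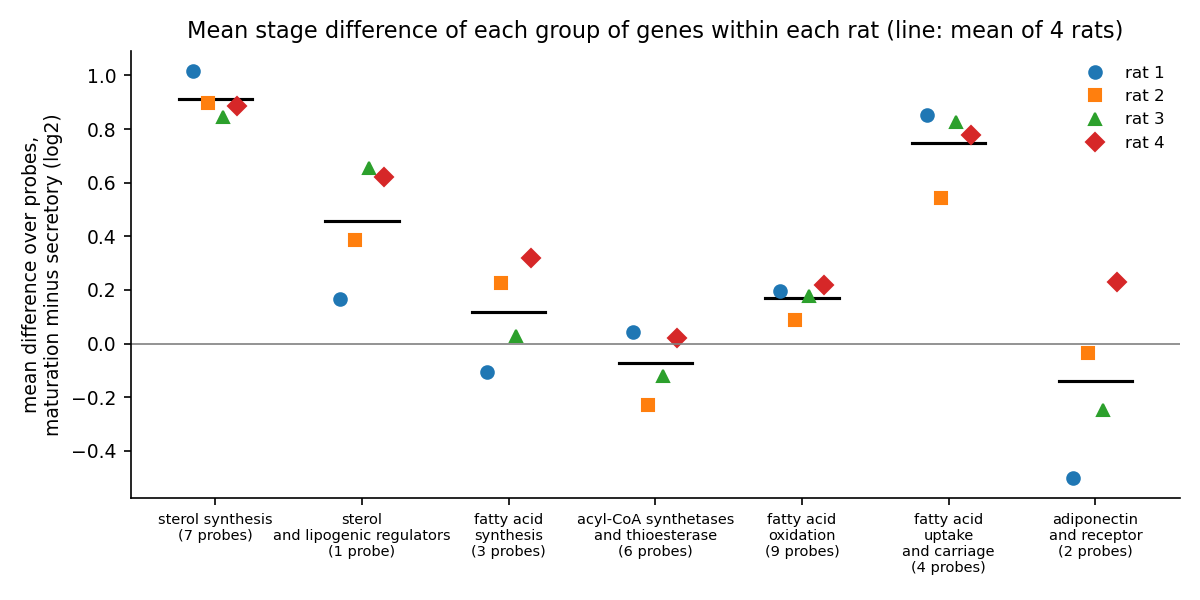
The mean maturation minus secretory difference (log2) within each rat over the probes of a group that were detected on at least 1 array, with a symbol for each rat and a line at the mean of the 4 rats. Sterol synthesis lies between 0.85 and 1.02 and uptake and carriage between 0.54 and 0.85 in every rat, oxidation lies between 0.09 and 0.22, and the synthetases with Cte1 and the adiponectin pair hold members of opposite sign and scatter about 0.

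Within each rat, the sterol synthesis group had differences that spanned 0.85 to 1.02, and uptake and carriage 0.54 to 0.85. The mean of the oxidation group, which includes Acad9 and Abcd2, was 0.20, 0.09, 0.18 and 0.22 in rats 1 to 4. All 4 rats were on the same side of 0 in these 3 groups, whereas the means of fatty acid synthesis, from -0.11 in rat 1 to 0.32 in rat 4, and of the synthetases with Cte1, from -0.23 in rat 2 to 0.04 in rat 1, were not.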

How the data were processed

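RNA of both stages was measured on 8 RatRef-12 v1 arrays. The authors deposited 1 table of uncorrected, unnormalized intensity values (mean over the beads of a probe), each with a detection p-value, a bead number and a bead standard error. The program behind the bead summary, and any genome build, are not given in the sources used here.

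The values were background-corrected, quantile-normalized and put on the log2 scale by neqc of limma 3.58.1 (R 4.3.3), whose negative controls were derived from the detection p-values, with an offset of 16. All 22523 probes were fitted with lmFit and eBayes, unpaired and unfiltered, with Benjamini-Hochberg adjustment. Differences are maturation minus secretory, and p-values cover the spread between 4 rats. Undetected in a stage means that none of its 4 arrays had a detection p below 0.05, and the fold was then taken against the lowest signal of a detected probe. The code was tested on simulated data. The members and lists were chosen with earlier results of these data known. Named are all members, the 3 most changed called probes of each companion list, and called or undetected markers, apart from genes said to be looked up later. Some genes of the companion lists count in the totals and are not reported here by name. A gene table of GRCr8 gave current symbols for 17430 probes.

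Each rat gave both stages, so replicate numbers pair the samples by design. Over 11233 detected probes, deviations from the stage means correlated at 0.195, 0.129, 0.219 and 0.234 within rats 1 to 4. Alternatives were other background corrections, an offset of 50, other normalizations, a detection filter, the methods' t-test, a threshold of 0.01, the rat as a block, and leaving out single arrays. No normalization between arrays and 1 probe per gene were added after the data were seen. Slide was not run as a block, since the files used here give no slide per array.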

Additional observations from a re-analysis of the deposited data

Results flagged for a closer look

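In 75 sets of 4 values, about 3.75 would be picked by chance for a sample that stands apart from the other 3 of its stage. The 7 picked here are small in size beside the stage differences, except where said, and no explanation was tested. Secretory replicate 3 of Fdps read 8.97, with the others at 9.11 to 9.13. Fdft1 stood apart in rat 4 in both stages, at 9.40 in the secretory stage (others 9.19 to 9.22) and at 10.48 in the maturation stage (others 10.42 to 10.43). Maturation replicate 4 of Acsl3 read 11.26, with the others at 11.17 to 11.18. Maturation replicate 1 of Srebf1 read 8.64, with the others at 8.93 to 8.97, a gap comparable with its stage difference of 0.46. The same values give the regulator group a mean deviation from the probe mean of -0.0021 in that sample, against 0.28 to 0.32 in the others. Maturation replicate 4 of Abcd2 read 5.11, with the others at 4.66 to 4.69, and was the one maturation-stage array on which Abcd2 was detected.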

How the results depend on the processing

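The 7 sterol synthesis probes were higher at the adjusted p under every setting run. Calls near the fold of 1.8 were less stable. Without background correction 923 of all probes were called, and 6 of the set, with 0 of the oxidation and 0 of the adiponectin probes and with 2, 2 and 0 of the further probes for sterol synthesis, fatty acid synthesis and uptake. An offset of 50 gave 6 in the set, 0 for oxidation, 0 for adiponectin and 3 further probes for fatty acid synthesis, and normexp without negative controls gave 0 for oxidation and 1 for adiponectin. Acad9, Abcd2 and Adipor2 were not called under any of these 3, and Adipoq was called with normexp. Cyclic loess gave 1 for oxidation, with Acad9 not called, and 2 further probes for uptake. Median scaling called 16 of the set, Acad9 not among them, with 7 for sterol synthesis and 2 for uptake, and 11 and 6 further probes for sterol synthesis and uptake. With no normalization between arrays, chosen after seeing the data, the median of the detected probes was 0.38, 87.2% of all calls were higher, and 23 of the set were called. These were 7 for sterol synthesis, 1 for Srebf1, 1 for fatty acid synthesis, 4 for the synthetases and Cte1, 5 for oxidation, 3 for uptake and 2 for adiponectin and its receptor, beside 12, 7 and 7 further probes for sterol synthesis, oxidation and uptake. In both of these the cause was not tested. The sign of Scd1 turned to 0.10 and 0.30, that of Acsl1 to 0.26 and 0.46 (0.019 with cyclic loess), and that of the undetected Angptl4 probe to -0.039 with median scaling. With no normalization, Ggps1 turned to 0.13 and Acot9 to 0.043.

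Leaving out each array in turn gave 1705 to 1806 calls over all probes and 9 to 12 in the set. The range was 3 to 5 for sterol synthesis (5 without maturation replicate 2), 1 to 2 for oxidation (1 without secretory replicate 2), 1 to 2 for adiponectin (1 without secretory replicate 4) and 1 to 2 for the further uptake probes (2 without maturation replicate 1). Acaa1 (0.77 without secretory replicate 2) and the endothelial marker Vwf (0.76 without maturation replicate 3) were each not called in several of these. With the rat as a replicate block, the pairing given by the design, 1750 probes and 10 of the set were called, 6 higher and 4 lower. Cpt1a passed the adjusted p with the block (0.00893), so that 23 of the set were higher at that threshold, and no other member crossed it. The methods' t-test, the detection filter, an adjusted p below 0.01 and 1 probe per gene (chosen after seeing the data) also gave 10 in the set. Over all single-probe results and settings, 930 kept their direction and side of the threshold, 32 lost a call, 35 gained one and 8 changed sign. The folds of Cte1, Abcd2 and Adipoq, whose maturation-stage signals lie at the background, moved with its correction, to -1.57, -0.33 and -0.44 on the log2 scale without it. The further genes Fads2 and Hsd17b7 were then at 0.59 and 0.90 and the Tm7sf2 probes at 0.71 and 1.67.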
